A study of Mus musculus with 2 samples.

Results

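The Smad family and its co-repressors comprise 10 mouse genes, *Smad1*, *Smad2*, *Smad3*, *Smad4*, *Smad5*, *Smad6*, *Smad7*, *Smad9*, *Ski* and *Skil*, and the peaks described here are those whose annotated gene has one of these names in either of 2 H3K36me2 peak lists from mouse colon. Of the 10 genes, 5 had at least 1 peak and 5 had none, among 18187 genes with a peak in either list. Over all 21900 protein-coding genes of the RefSeq table, 43.4% had a peak. To these genes, the members below, belonged 9 of the 19976 peaks listed for the *Nsd2* fl/fl library, called fl/fl below, and 14 of the 23518 listed for the *Nsd2* ΔIE library, called ΔIE.

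H3K36me2, the dimethylated form of lysine 36 on histone H3 that the methyltransferase NSD2 deposits, was profiled by CUT&Tag, in which an antibody on chromatin guides the transposase Tn5 to cut and tag the DNA nearby. The *Nsd2* fl/fl mice carry loxP-flanked *Nsd2* without its deletion and served as the wild type, and the *Nsd2* ΔIE mice lack NSD2 in the intestine, by Cre under the villin promoter. Both groups had a C57BL/6J background, were male littermates by the study's methods and received HFCD, a diet high in fat and cholesterol, for 16 weeks by the deposited design, while the study's methods give another time. Villin-Cre acts in epithelial cells, while whole colon tissue was used, so the other cells of the sample keep *Nsd2*. Each genotype was 1 library, hence no difference below has a replicate check and none was tested, and it is not stated how many animals gave the tissue. In bulk tissue, fewer cells with the mark and less of the mark per cell cannot be told apart.

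Smad proteins carry signals of the TGF-β family from the cell membrane to the nucleus. Receptor-regulated Smads are phosphorylated by type I receptors, SMAD1, SMAD5 and SMAD9 mostly after BMP ligands and SMAD2 and SMAD3 after TGF-β and activin, and then join SMAD4, the common partner. SMAD6 and SMAD7 inhibit this relay, and SKI and SKIL (SnoN) bind Smad complexes on DNA and recruit co-repressors. In the intestine, BMP signals favour differentiation of epithelial cells along the crypt axis, and TGF-β signals restrain epithelial growth and shape mucosal immunity and fibrosis.

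The lists differ as a whole, which bears on each gene. The lowest summed signal of any peak was 21783 in fl/fl and 16571 in ΔIE, and the median peak was 4643 bp and 3426 bp wide. The signal is the authors' sum over a peak with no stated scaling, so it ranks peaks within a list only. Since peaks of a histone mark give no RNA level, neither the deletion nor the cell types could be checked from expression. Of the marker genes examined, 7 of 11 of colon epithelium, 2 of 5 of leukocytes and 3 of 7 of stroma and muscle had a peak, with 38038, 9746 and 34529 bp covered in fl/fl and 59906, 8436 and 21088 bp in ΔIE. *Cdx2*, *Krt8*, *Cd3e*, *Col1a1* and *Acta2* had none in either list. The part of cell composition in the differences below was not tested. *Nsd2* itself had no peak in fl/fl and 1 in ΔIE. *Vil1*, whose promoter drives the Cre, had a promoter peak of 64.9 signal per bp in fl/fl and of 76.8 in ΔIE, far above the medians of 6.14 and 6.32.

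*Ski* in both libraries and *Smad6* in fl/fl alone had promoter peaks close to the start of a curated transcript. The 250 bases before those starts are shown from RefSeq (GRCm38.p6), 5′ to 3′ on the minus strand. The lists use another coordinate system than this table, so the positions are not comparable with those of the peaks. Capitals mark GGCGCC, the GC-rich site to which Smads can bind.
*Ski*, chr4:155222536-155222785: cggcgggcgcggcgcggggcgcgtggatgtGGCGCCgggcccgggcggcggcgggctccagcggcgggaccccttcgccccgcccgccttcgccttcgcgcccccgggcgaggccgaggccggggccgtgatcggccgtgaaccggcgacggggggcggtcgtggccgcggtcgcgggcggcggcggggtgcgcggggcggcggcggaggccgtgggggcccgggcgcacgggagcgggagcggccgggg
*Smad6*, chr9:64022060-64022309: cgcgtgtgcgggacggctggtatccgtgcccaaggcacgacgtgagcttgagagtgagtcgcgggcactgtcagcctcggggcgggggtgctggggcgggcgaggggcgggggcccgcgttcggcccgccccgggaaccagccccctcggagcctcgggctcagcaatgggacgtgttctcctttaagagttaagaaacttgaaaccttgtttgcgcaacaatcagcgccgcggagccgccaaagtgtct
Of these bases, 87.6% in *Ski* and 66.8% in *Smad6* were G or C, against a median of 52.4% over 32851 promoter windows of the same length. *Ski* held 53 CpG dinucleotides, more than 99.96% of the windows, and *Smad6* held 27, where the median window held 6. GGCGCC stood once in the window of *Ski* and not in that of *Smad6*, and it was found on either strand in 9.59% of all windows. The Smad box CAGAC, present in 42.2% of windows, and the palindrome GTCTAGAC, present in 0.167%, matched neither sequence. Outside the chromosome of *Smad2*, *Smad4* and *Smad7*, which was left out, 8 windows belonged to *Smad1*, *Smad3*, *Smad5*, *Smad6*, *Smad9* and *Ski*. All 8 windows of these 6 genes held between 22 and 53 CpG.

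Across the members, the annotated peaks covered 50483 bp in fl/fl and 58069 bp in ΔIE. This order depends on the annotation to the nearest start. With peaks added that their description places in a member gene, the totals were 65970 bp in fl/fl and 61347 bp in ΔIE. Covered length, the summed width of all peaks annotated to a gene, was higher in ΔIE for *Smad1* and *Ski*, lower for *Smad2*, and within 0.5 on the log2 scale for *Smad3* and *Smad6*. The share with less length was 1 of 5 genes, where 43.3% of all 18187 genes had less, and the share with more was 2 of 5, where 39.7% of all genes had more. With 5 genes, a single gene is 20% of either share. Here, less and more mean a log2 ratio, ΔIE over fl/fl, beyond 0.5, or a peak in 1 list only. Among genes with peaks in both lists the median ratio was -0.32, so a gene at 0 stood above the middle of the lists. *Smad6*, at -0.50, lay just inside the limit and *Ski*, at 0.51, just outside it.

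**Figure D1:**
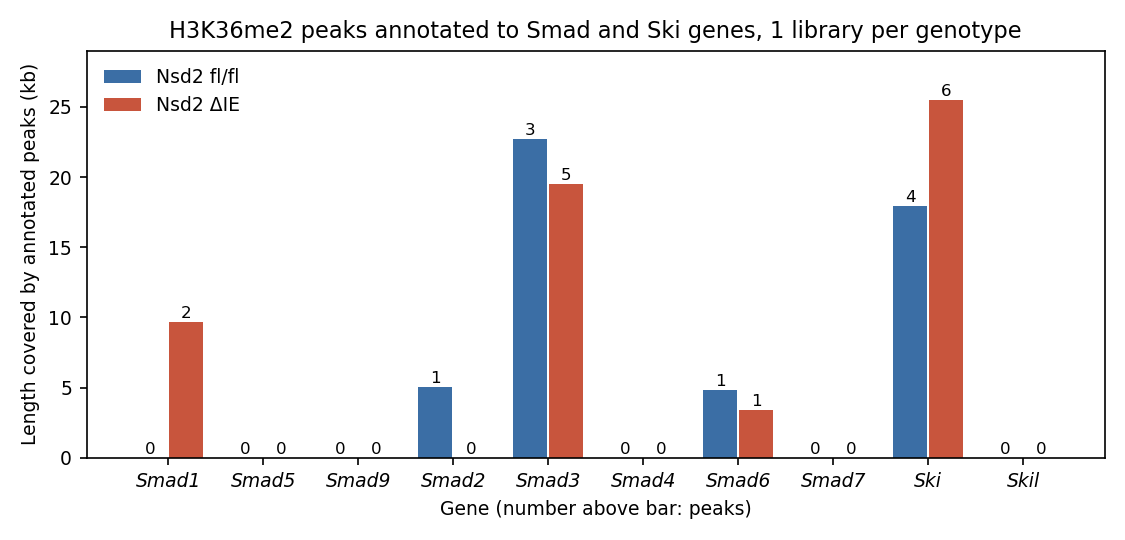
Length covered by annotated H3K36me2 peaks (kb, vertical axis) for each of the 10 genes, ordered by role, with 1 bar per library and the number of peaks above each bar. *Smad3* and *Ski* hold the longest totals in both libraries, *Smad1* and *Smad2* have peaks in 1 library each, and 5 genes have none.

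Among the Smads of the BMP branch, *Smad1* was the one with listed peaks, and they stood in the ΔIE list. No fl/fl peak was annotated to *Smad1* or lay within its 61034 bp, and the nearest to its curated start was 97642 bp away. In ΔIE, a peak of 6007 bp lay in intron 1 of 6 on chromosome 8, from 80115225 to 80121231. It began 4826 bp downstream of the start and its signal of 30552 put it among the strongest 13.5% of the list. A second peak of 3678 bp, from 80068161 to 80071838 at exon 6 of 7 of a predicted transcript, had a signal of 21545, within the strongest 42.4%. Together they covered 9685 bp, or 15.9% of the gene, and neither touched a promoter.

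*Smad9*, which encodes SMAD8/9, had no peak of its own by annotation, but both libraries had one at its locus. The ΔIE list placed a peak of 3278 bp, on chromosome 3 from 54697718 to 54700995, in intron 5 of 6 of *Smad9* and annotated it to *Rfxap*, the nearest start, which encodes a subunit of the RFX complex. An fl/fl peak of 8155 bp, from 54697895 to 54706049, overlapped it by 3101 bp. That peak was described as 3′ UTR without the gene's name and ended 4487 bp short of the listed *Rfxap* transcript. The stretch was thus marked in both libraries and was longer in fl/fl, and whether its remainder lies in *Smad9* was not read from another build.

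*Smad5* had no annotated peak in either list. Its nearest listed neighbour on one side, the non-coding *Gm33019*, had a peak of 6720 bp at its promoter in fl/fl and of 2932 bp in an exon in ΔIE. On the other side, *Gm45623* had 2 peaks of 4116 and 4624 bp in fl/fl and 1 of 4374 bp in ΔIE. The fl/fl peak of 4116 bp and the ΔIE peak were annotated as 3′ UTR although they lay 5583 and 7629 bp outside the listed *Gm45623* transcript. The lists do not name the gene of a 3′ UTR, so its owner was not assigned here.

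Of the Smads of the TGF-β and activin branch, *Smad2* had a single distant peak and *Smad3* the longest coverage in fl/fl of any member. The peak of *Smad2* was 5043 bp wide, from 76488609 to 76493651 on chromosome 18, and was distal intergenic, 93093 bp from the start and 43791 bp beyond the end of the gene. Its signal, 22671, exceeded the minimum of the fl/fl list by a factor of 1.04. No ΔIE peak was annotated to *Smad2*, the ΔIE peak nearest to the gene was 28911 bp away, and the one nearest to the fl/fl peak 37107 bp. Neither library had a peak within the 49303 bp of the gene.

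*Smad3* had 3 peaks over 22716 bp in fl/fl and 5 peaks over 19478 bp in ΔIE, a log2 ratio of -0.22. At least that length was covered in 3.92% of the fl/fl genes with a peak and in 3.38% of those of ΔIE. The length was thus similar, while its arrangement differed, with 4314 bp shared between the libraries, 19.0% of the length in fl/fl and 22.1% in ΔIE. Over the whole lists, 20.0% and 23.4% of the length was shared.

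The widest peak of any member lay in the 3′ part of *Smad3* in fl/fl, 12067 bp on chromosome 9 from 63558300 to 63570366 around exon 4 of 7. Its signal of 91237 ranked 190th of the list, within the strongest 0.951%, and 1.58% of the peaks were at least as wide. In ΔIE, most of that stretch held no peak. A peak of 4576 bp, from 63555198 to 63559773 in the 3′ UTR, overlapped the wide peak by 1474 bp. A peak of 6871 bp, from 63570400 to 63577270, began just beyond its other end.

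That ΔIE peak of 6871 bp covered the start of a short predicted *Smad3* transcript and was the strongest member peak of its list, with a signal of 42570, within the strongest 4.88%. In fl/fl a peak of 6012 bp, from 63574431 to 63580442, lay 259 bp upstream of the same start and overlapped it by 2840 bp. At the start of a longer predicted transcript, fl/fl had a peak of 4637 bp over the start, from 63617703 to 63622339. There, ΔIE had peaks of 3307 and 2891 bp at 2939 and 7583 bp downstream, the former still within the promoter limit of 3 kb. The last ΔIE peak, 1833 bp wide, lay 1662 bp beyond the 3′ end of the listed *Smad3* transcripts, although it was annotated as 3′ UTR. It had the highest signal per bp of the ΔIE member peaks, 9.67.

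*Smad3* also carried fl/fl peaks that the annotation gave to another gene. One was 7365 bp wide, from 63646638 to 63654002 in intron 1 of 8 of the curated transcript, and was annotated to the non-coding *Gm51710*. The nearest ΔIE peak was 30071 bp away. With this peak counted, the log2 ratio of *Smad3* was -0.63, past the limit for less. A second *Gm51710* peak, 4509 bp from 63631711 to 63636219, lay between it and the listed *Smad3* starts, and with both counted the ratio was -0.83. The promoter peaks of *Smad3* belong to predicted starts inside this curated transcript, whose own start carried no listed *Smad3* peak.

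**Figure D2:**
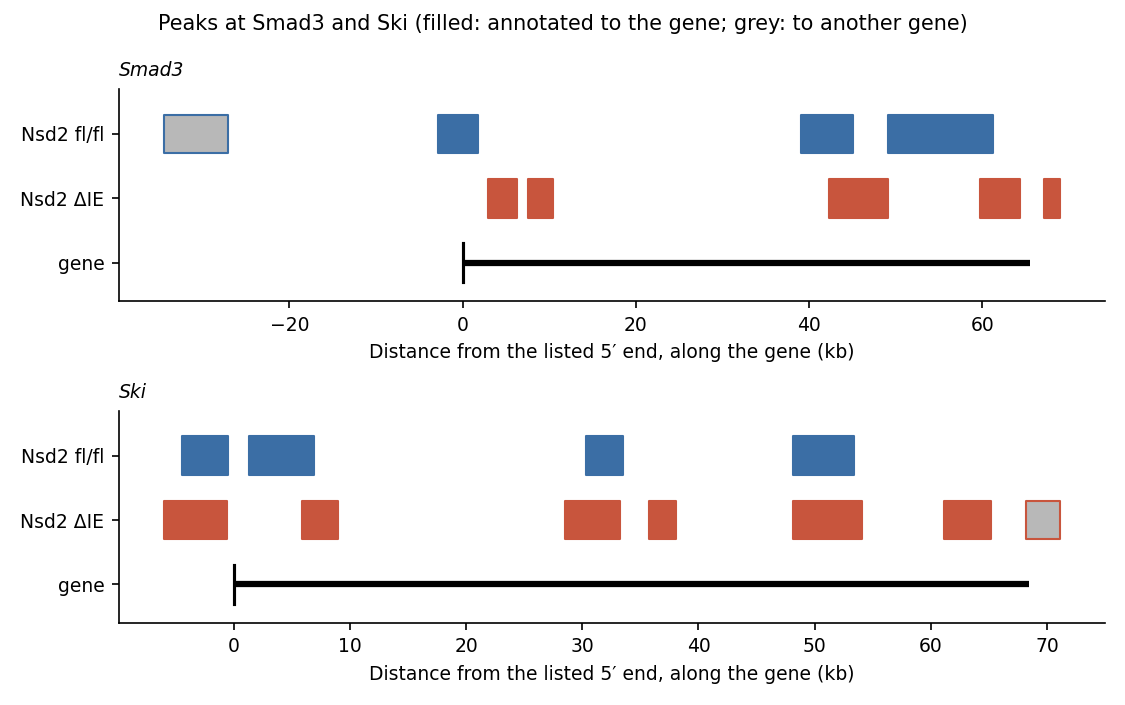
Peaks at *Smad3* and *Ski* by distance in kb from the 5′ end of the longest listed transcript (horizontal axis), with fl/fl above and ΔIE below and the transcript as a black line. Grey peaks overlap the transcript with 3 kb to either side, or are placed in the gene by their description, but are annotated to another gene. All 4 *Ski* peaks of fl/fl have an overlapping ΔIE peak, while the widest *Smad3* peak meets ΔIE peaks near its edges.

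*Smad4*, the common partner, had no annotated peak in either library. Its neighbour *Mex3c*, an RNA-binding protein gene, had 1 distal peak of 5870 bp in fl/fl and 2 of 3341 and 2692 bp in ΔIE, at 24484, 25883 and 49506 bp from the *Mex3c* start. *Elac1*, on the other side, had none, and *Me2* beyond it had 1 of 3093 bp in ΔIE.

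Of the inhibitory Smads, *Smad6* had 1 peak in each library, at different places. In fl/fl it was 4798 bp wide, from 63924300 to 63929097 on chromosome 9, and lay at the promoter, 244 bp downstream of the start. In ΔIE the peak of 3399 bp, from 63905060 to 63908458, lay in intron 3 of 3, 20883 bp downstream of the start. The peaks were 15841 bp apart and no ΔIE peak lay within 10 kb of the start. The *Smad6* sequence shown above thus lay in no peak of either library if the RefSeq start is the listed one. Both were strong in their lists, within the strongest 23.3% and 18.6%.

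The 3′ part of *Smad6* was marked in fl/fl by a peak of 8122 bp, from 63863629 to 63871750 in intron 3, which the annotation gave to the non-coding *Gm36033*. With it, the log2 ratio of *Smad6* was -1.93 in place of -0.50. Just past the 3′ end, both libraries had a peak annotated to *Gm36033*, of 4013 bp in fl/fl and 4714 bp in ΔIE, with 2207 bp in common. Within the gene itself, peaks covered 18.7% of the length in fl/fl and 4.93% in ΔIE.

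**Figure D3:**
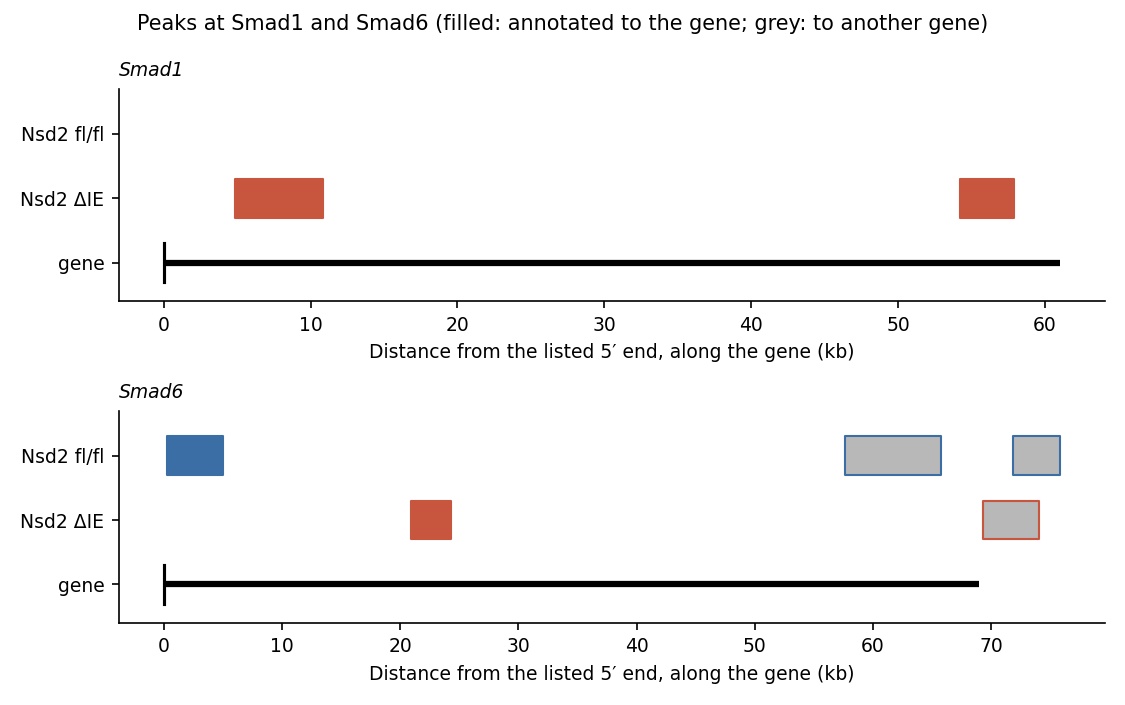
Peaks at *Smad1* and *Smad6* by distance in kb from the 5′ end of the longest listed transcript (horizontal axis), drawn as in the map of *Smad3* and *Ski*. *Smad1* has peaks in ΔIE alone, and the coloured peaks of *Smad6* lie at the start in fl/fl and 20883 bp downstream in ΔIE.

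*Smad7*, an inhibitor that TGF-β itself induces, had no annotated peak. Next to it, *Gm41776* had 2 peaks over 10676 bp in fl/fl and 1 of 3857 bp in ΔIE, while *Gm20544* had none and 1 of 3495 bp. *Ctif*, a translation factor gene farther on, had 7 peaks over 31153 bp and 4 over 12434 bp.

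Of the co-repressors, *Ski* had the most peaks of any member, 4 over 17926 bp in fl/fl and 6 over 25507 bp in ΔIE. In ΔIE, 2.46% of the genes with a peak had 6 or more, and in fl/fl, 6.09% had 4 or more. All 4 fl/fl peaks overlapped a ΔIE peak of *Ski*. The shared stretches added up to 13037 bp, 72.7% of the length in fl/fl and 51.1% in ΔIE, against 20.0% and 23.4% over the whole lists.

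Upstream of the *Ski* start, both libraries had a peak, of 3938 bp from 155307500 to 155311437 in fl/fl and of 5416 bp from 155307587 to 155313002 in ΔIE, on chromosome 4. They shared 3851 bp and came to within 508 and 595 bp of the start, so that the start itself lay in no peak, nor did the GC-rich sequence shown above if the RefSeq start is the listed one. The base of highest signal stood at -1546 bp from the start in fl/fl and at -3128 bp in ΔIE. Downstream, fl/fl had a promoter peak of 5592 bp beginning 1301 bp from the start. The ΔIE peak there, 3119 bp wide, began at 5896 bp, counted as intronic and shared 997 bp with it.

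Within intron 1 of *Ski*, a pair of peaks about 48165 bp from the start lay at nearly the same place, 5253 bp in fl/fl lying wholly inside 5900 bp in ΔIE. Another pair, 3143 and 4734 bp wide and about 30339 bp from the start, shared 2936 bp. ΔIE had further peaks of 2295 bp in intron 1 and of 4043 bp at exon 2 of 6, with no overlapping fl/fl peak. The first of these had a signal of 17088, 1.03 times the lowest of the list. At the 3′ end of *Ski*, a ΔIE peak of 2891 bp was annotated to the adjacent *Morn1* and lay 551 bp from an fl/fl peak of *Morn1*. Restricted to promoter peaks, *Ski* turned to less length in ΔIE, with a log2 ratio of -0.82, and with equal numbers of peaks in both lists it was 0.37, inside the limit.

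*Skil*, the other co-repressor, had no annotated peak. The neighbouring *Cldn11*, a tight junction gene, had a promoter peak of 3855 bp in fl/fl and an intronic peak of 2290 bp in ΔIE.

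By position, 6 of the 9 fl/fl member peaks overlapped a ΔIE peak by at least 1 bp, 66.7% (95% Wilson interval 35.4% to 87.9%, counting error only), where 34.1% of all fl/fl peaks did. Of the 14 ΔIE peaks, 6 overlapped an fl/fl peak, 42.9% (21.4% to 67.4%), where 30.7% of all did. The 6 pairs were 4 of *Ski* and 2 of *Smad3*, so these peaks share their genes and are not independent. When both peaks had to share 50% of their length, 3 pairs remained, all in *Ski*. At promoters, within 3 kb of a start, lay 5 of the 9 peaks in fl/fl, 55.6% (26.7% to 81.1%), and 3 of the 14 in ΔIE, 21.4% (7.57% to 47.6%). Over the whole lists these shares were 32.1% and 27.9%. Of the member promoter peaks, 2 in fl/fl and 2 in ΔIE lay at predicted *Smad3* starts, not at a curated one. In ΔIE, 11 of the 14 peaks were exonic, intronic or in a 3′ UTR by annotation, where 48.0% of the list were, and in fl/fl 3 of the 9, where 45.4% were.

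By summed signal, 5 of the 9 fl/fl member peaks and 11 of the 14 ΔIE peaks were above the median of their list, which by definition 50% of its peaks exceed. Per bp, the signal ran from 4.50 to 7.57 in fl/fl and from 5.09 to 9.67 in ΔIE.

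**Figure D4:**
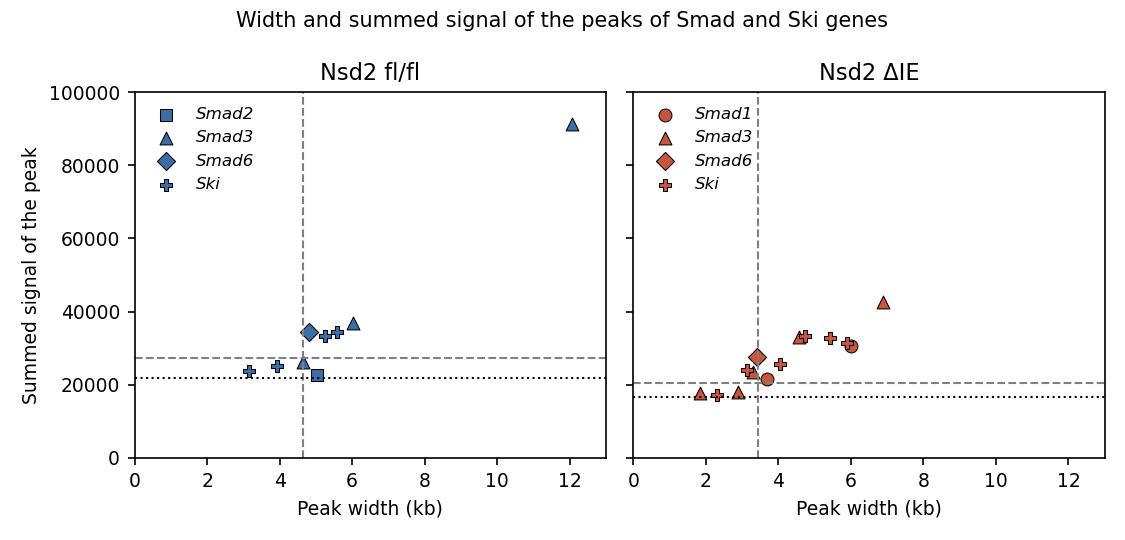
Width in kb (horizontal axis) and summed signal (vertical axis) of each member peak, 1 panel per library and 1 symbol per gene. Dashed lines are the medians of all peaks of the list and the dotted line its lowest signal. The *Smad3* peak of 12067 bp stands apart in fl/fl, and *Smad2* lies near the dotted line.

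Around the Smads, 134 genes of the TGF-β and BMP pathways in 9 lists were examined, and 85 of them had a peak. Covered length was less in ΔIE for 44 (51.8%), more for 29 (34.1%) and similar for 12, beside the 43.3% and 39.7% of all genes with a peak. The list sizes given below include genes without a peak. Among genes with a peak, the share with less ran from 41.2% in the extracellular inhibitors to 66.7% in the TGF-β, activin and nodal ligands. The share with more ran from 0% to 50%. A list held 2 to 17 such genes, so single genes weigh heavily. Where both libraries had a peak, in 32 genes, the median log2 ratio was -0.40, beside -0.32 over all genes. Promoter peaks were found at 25 genes in fl/fl and at 26 in ΔIE, and at 7 in both.

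Of 13 TGF-β, activin and nodal ligand genes, 6 had less length and 2 more, with 1 similar and 4 without a peak. *Inhbb*, the activin βB chain, had 12628 bp in fl/fl and no peak in ΔIE. *Tgfb1* had 4486 and 2590 bp in fl/fl and ΔIE, *Tgfb2* 5565 and 4882 bp, and *Nodal* 4594 and 2512 bp. Of 17 BMP and GDF ligand genes, 5 had less and 5 more. *Gdf7* had 13300 bp in 3 peaks of ΔIE and none in fl/fl, the reverse of *Gdf10* with 4840 bp in fl/fl alone. *Gdf2*, which encodes BMP9, had 6847 and 3341 bp, and *Bmp8a* 5215 and 3448 bp.

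Among 7 type I receptor genes, which encode the kinases that phosphorylate the Smads, 3 had less and 3 more. *Acvrl1* (ALK1) had 7473 bp in fl/fl, with a promoter peak, and 12711 bp in ΔIE, without one, and *Bmpr1b* had 4880 and 9960 bp. *Acvr1b* (ALK4) had a promoter peak in both, 5330 and 3024 bp. *Acvr1* and *Acvr1c* had a promoter peak in fl/fl, of 5046 and 4200 bp, and no peak in ΔIE. Of 11 type II receptor and co-receptor genes, 5 had less and 2 more. *Acvr2b*, with 2979 bp, and *Eng*, the endothelial co-receptor endoglin, with 4674 bp, had a promoter peak in fl/fl and no ΔIE peak. *Bmpr2* and *Acvr2a* had 4405 and 4611 bp away from the promoter, again in fl/fl alone. *Amhr2* had a promoter peak of 2615 bp in ΔIE alone, and *Rgma* had 4389 and 4879 bp, with the promoter peak in ΔIE.

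Of 22 genes for extracellular inhibitors and latency proteins, 7 had less and 7 more. The BMP antagonist *Chrdl2* had 13537 bp in 3 peaks of fl/fl and 28271 bp in 7 of ΔIE, a log2 ratio of 1.06. *Bmper*, a secreted BMP modulator, had 7791 and 22057 bp. The latent TGF-β binding proteins *Ltbp1* and *Ltbp2* were within the limit, at 0.34 and -0.39.

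Of 19 genes for cytoplasmic and membrane regulators, 6 had less and 4 more. *Nedd4l*, a ubiquitin ligase that acts on SMAD2 and SMAD3, had 8 peaks over 36767 bp in fl/fl and 2 over 6529 bp in ΔIE, a log2 ratio of -2.49. *Tab1*, an activator of the kinase TAK1, had 18253 and 6657 bp, and *Pmepa1*, a TGF-β-induced inhibitor of receptor Smads, 16780 and 9966 bp. *Ldlrad4*, a relative of *Pmepa1*, had 10882 and 9307 bp.

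Of 22 genes for nuclear partners, 5 had less, 4 more and 3 a similar length. The Runx factors, which bind DNA with Smads, differed, *Runx1* with 28278 and 16290 bp and *Runx3* with 4930 and 16399 bp. *Mecom*, the locus of the Smad repressor EVI1, had 15081 and 18762 bp. Of the 4 Ski and Dach relatives, *Skor1* had 14793 and 16725 bp and *Skor2* 11042 and 2610 bp, while *Dach1* and *Dach2* had no peak. Of 19 known Smad target genes, 6 had less and 2 more, each of these 8 with a peak in 1 library alone. Among them, *Snai1* and *Id2* had 5271 and 4762 bp in fl/fl, while *Tgfbi* had 10060 and 7562 bp and *Id1* 3763 and 3168 bp, both within the limit.

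**Figure D5:**
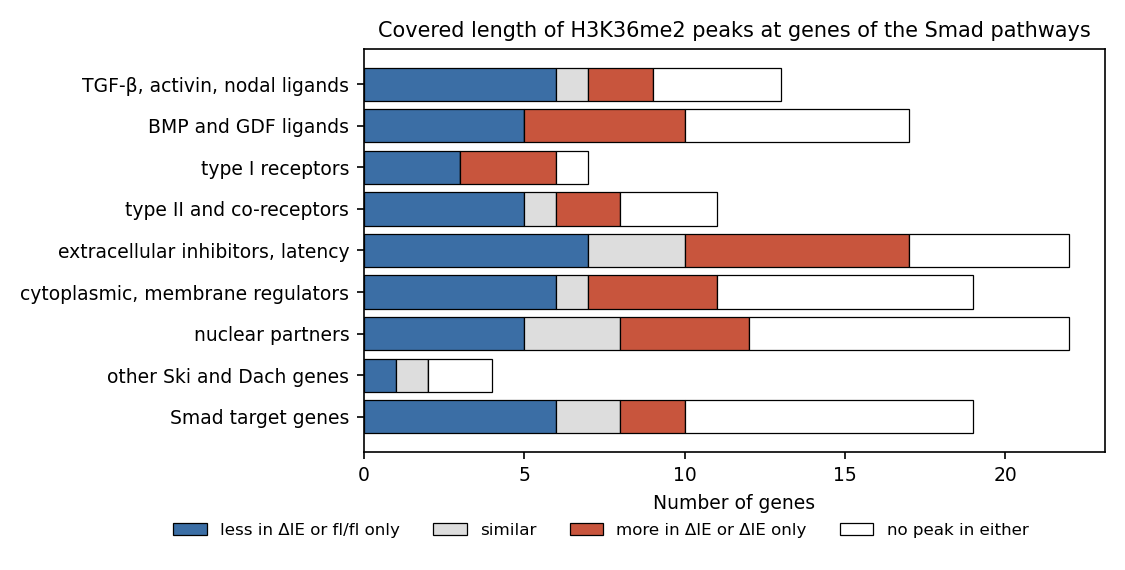
Number of genes (horizontal axis) in each of 9 lists of TGF-β and BMP pathway genes with less, similar or more covered length in ΔIE, or with no peak in either library. Of 9 ligand genes of the TGF-β branch with a peak, 6 show less and 2 more, and of 17 such extracellular inhibitors, 7 show each.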

How the data were processed

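H3K36me2 was measured by CUT&Tag in 1 colon library of each genotype. The authors called peaks in each library without pooling, and the deposited lists give for each peak its position, its width in bp, a summed signal (unit: signal, no stated scaling) and its nearest gene and feature. The submitters' processing notes name Bowtie2, deepTools, SEACR and ChIPseeker, without versions, and list the human build hg38 for these mouse samples. The build is therefore uncertain, and coordinates are printed as the lists give them. Read depth is unknown, and the lists hold no p-values.

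Peak widths were summed per annotated gene in each library. A log2 ratio beyond 0.5, or a peak in 1 list, counted as less or more. Overlap meant at least 1 bp. Shares have 95% Wilson intervals. Python 3.11.15, pandas 2.3.3, numpy 2.4.6, scipy 1.17.1 and matplotlib 3.10.9 were used, and the functions were tested on simulated lists. The groups came from the sample labels. With 1 library per genotype, no statistical test was made. Promoter windows came from a RefSeq table and were searched on both strands.

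The 10 genes and the lists were chosen with earlier results of these data known. Named were all members with their peaks, neighbours with peaks near a member, up to 4 genes of each pathway list with the greatest covered length over both libraries, and receptor genes with a promoter peak. Neighbours of members without a peak were taken from the order of genes in the RefSeq table of GRCm38.p6. Alternatives were the gene body with 3 kb, promoter peaks, equal numbers of peaks, the strongest 50%, centring on the median gene, summed signal, other limits, overlap rules and merging within 1 kb. Counting peaks by their feature description, and for *Smad3* all peaks up to the farthest of these, was added after the data were seen. Sequences on the chromosome of *Smad2*, *Smad4* and *Smad7*, and 1 pathway gene that the naming rule covers, are not reported here.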

Additional observations from a re-analysis of the deposited data

How the results depend on the processing

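No paired analysis was possible because there was 1 library for each genotype. Of 69 values under alternative settings, 52 stayed within 1.5 times the reported count or length, within its interval, or within 0.5 of a log2 ratio, and 17 did not. Some of the 52 could not move, since equal numbers of peaks left the fl/fl list of 19976 peaks whole. Nor does staying mean an unchanged call. *Smad3* at -0.63 by feature description and *Ski* at 0.37 with equal peak numbers stayed by this rule but crossed the limit of 0.5. Over the gene body with 3 kb, 1 member still had less, but it was *Smad6* in place of *Smad2*. The intervals of the overlap shares were wide, so staying within them is a weak check. Of 21 log2 ratios, 4 had the opposite sign to the reported one. With promoter peaks alone, the log2 ratio of *Ski* turned from 0.51 to -0.82, the covered length of all members was 24977 bp in fl/fl and 15594 bp in ΔIE, and 2 members had less and 0 more. With the strongest 50% of each list, 0 members had less, *Ski* was at 1.10, 5 fl/fl peaks were left and 3 of them were at promoters. With equal numbers of peaks, or with a limit of 1, 1 member had more. With peaks counted by their feature description, all members covered 65970 bp in fl/fl and 61347 bp in ΔIE, the reverse of the reported order. In that setting, 3 members had less and 3 more. *Smad9* was among those with more, although an fl/fl peak of 8155 bp overlapped its ΔIE peak of 3278 bp. The description of that fl/fl peak names no gene, so it was not counted, and this is no gain at the locus. The ratio of *Smad6* in this setting was -1.93. This ratio was -1.06 over the gene body with 3 kb, where the genes without a listed peak had no coordinates and were left out, and 0.09 by summed signal over the list median. *Smad3*, reported at -0.22, was at 0.21 by summed signal, at 0.10 when centred on the median gene, and at -0.83 with all peaks up to the one in its curated transcript. With a reciprocal overlap of 50%, 33.3% of the fl/fl member peaks were shared. The cause of these shifts was not tested beyond the peaks that each setting adds or drops.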
